A study of Bos taurus with 6 samples.

Results

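Steroidogenic enzymes and gonadotropin receptors were followed in bovine primordial follicles (PMF), the resting follicles of the ovarian reserve, in which 1 oocyte is enclosed by flat pre-granulosa cells. The set is made of 10 genes, taken by name for their part in steroid synthesis or gonadotropin reception: SCARB1, STAR, CYP11A1, FDX1, HSD3B1, CYP17A1, CYP19A1, HSD17B1, FSHR and LHCGR. All 10 were found among the 23704 genes measured, and all 10 passed the filter on low counts that left 14639 genes for testing. The libraries were 3 pools of PMF kept for 16 h in culture (T16) and 3 pools collected without that culture (T0). By the study's methods its PMF were mechanically isolated from Holstein ovaries and, before collection, recovered for 1 h in medium with insulin, transferrin, selenite and recombinant FSH. The T0 libraries are taken to be those PMF, which they match in number of replicates; their labels do not mention the recovery, so exposure of T0 follicles to FSH is not certain. The medium of the 16 h culture was not given in the sources used here. Each library is a pool of follicles; that different pools hold follicles of different animals is not stated in the sources used here.

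Steroid synthesis starts when cholesterol is taken into the cell and moved to the inner mitochondrial membrane, where CYP11A1 cuts its side chain to give pregnenolone. HSD3B1 turns pregnenolone into progesterone, CYP17A1 opens the way to androgens, and CYP19A1 (aromatase) makes estrogens of them. In growing follicles the theca cells, under LH, make androgens that the granulosa cells, under FSH, convert to estradiol. After ovulation the corpus luteum uses the first part of the same chain to make progesterone. PMF are held to start growth without gonadotropins, and pre-granulosa cells are not regarded as steroid-secreting cells.

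The total of estimated counts was 22174653 to 36703016 per library, and 13142 to 15118 genes had at least 10 counts in a library. The libraries of each group were unlike each other in their levels of cell type markers. The summed level of 15 oocyte markers was 2051, 80.6 and 758 TPM (a share of all transcripts, corrected for transcript length) in T16 replicates 1, 2 and 3, against 495, 1937 and 2849 TPM in T0 replicates 1, 2 and 3. T16 replicate 2 was thus lowest in oocyte RNA at T16 and T0 replicate 1 was lowest at T0. The summed level of 14 granulosa and pregranulosa markers was 1286, 10282 and 3254 TPM at T16 and 10211, 4705 and 1742 TPM at T0, and KRT8, a keratin of epithelial cells, was the highest of them on average. FOXL2, the pre-granulosa identity factor, was detected in all 6 libraries. In every sentence below, values of a group are given in the order of replicates 1, 2 and 3. In bulk RNA, fewer cells of a type and less RNA per cell cannot be told apart.

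The level of the 10 genes summed to 227, 1973 and 691 TPM at T16, against 3794, 1315 and 657 TPM at T0. STAR, CYP11A1 and HSD3B1 together made up 20.2%, 92.2% and 82.3% of this sum at T16 and 95.3%, 84.2% and 71.4% at T0. T16 replicate 1 stood apart: the set was lowest there, and most of what remained was FDX1. At the other end, CYP11A1 ranked 55th, STAR 60th and HSD3B1 94th among all genes in T0 replicate 1, and HSD3B1 ranked 81st in T16 replicate 2.

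**Figure D1:**
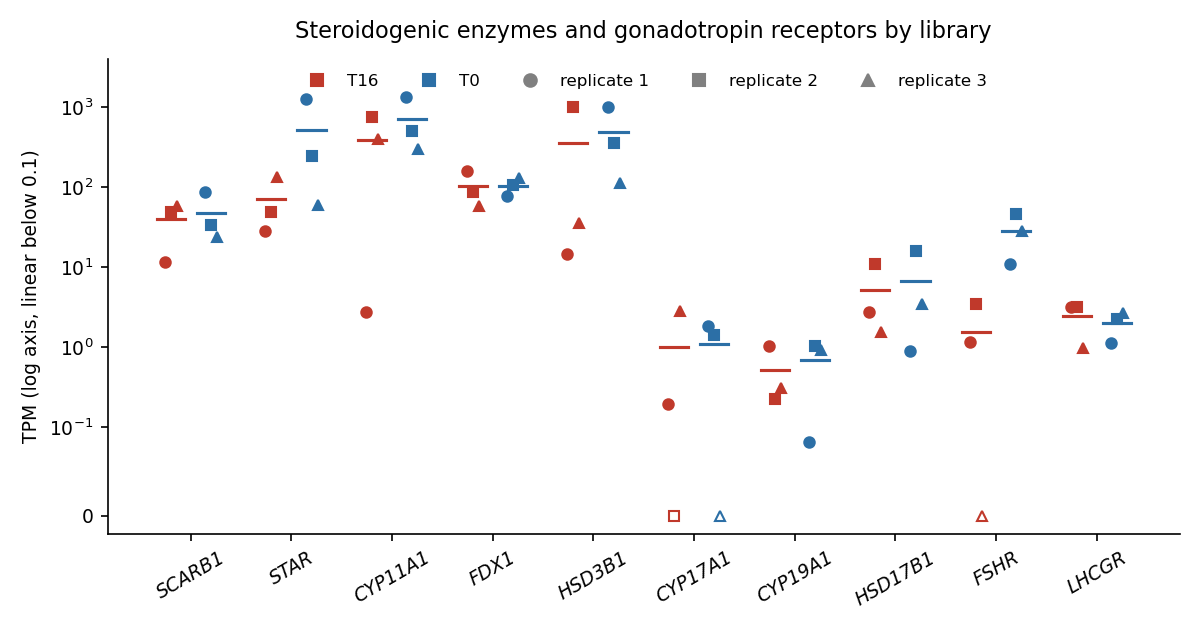
TPM of the 10 genes in each T16 (red, left) and T0 (blue, right) library, on a log axis that is linear below 0.1; bars are means of 3 libraries and open symbols are libraries with 0 counts. FSHR is the gene whose T16 libraries (0 to 3.46 TPM) all lie below its T0 libraries (10.8 to 45.6 TPM), while the other 9 overlap.

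At the front of the pathway, SCARB1, the receptor that takes up cholesterol from high-density lipoprotein, had 11.6, 49.3 and 57.9 TPM at T16, against 86.5, 33.8 and 24.0 TPM at T0. The groups overlapped, and the difference was not past the threshold (log2 fold change −0.19 ± 0.776 SE, edgeR adjusted p = 0.950). STAR, the steroidogenic acute regulatory protein that delivers cholesterol to the inner mitochondrial membrane, had 28.4, 48.6 and 136 TPM at T16, against 1268, 248 and 59.0 TPM at T0. STAR averaged 70.9 ± 57.1 TPM at T16 and 525 ± 651 TPM at T0 (SD, n = 3 each), and T16 replicate 3 lay above T0 replicate 3. Its log2 fold change was −2.81 ± 1.22 (SE), with an adjusted p of 0.374 by edgeR and 0.0704 by DESeq2. The value rested on T0 replicate 1, without which it was −0.81. Without T0 replicate 3 or without T16 replicate 3, DESeq2 gave STAR an adjusted p of 0.0150 and 0.0205 with log2 fold changes of −3.35 and −3.90.

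CYP11A1, the side-chain cleavage enzyme, had the highest mean TPM of the 10 genes in both groups, and at T16 the widest ratio of highest to lowest library among the 8 genes detected in all T16 libraries. It had 2.74, 763 and 398 TPM at T16, against 1339, 497 and 298 TPM at T0. T16 replicate 1 held 78 estimated counts of CYP11A1, while T16 replicates 2 and 3 held 19048 and 16867, and the highest T16 level was 278 times the lowest. T16 replicates 2 and 3 lay inside the T0 range. The log2 fold change was −0.83 ± 1.43 (SE, edgeR adjusted p = 0.864), and it was 0.19 without T0 replicate 1. FDX1, the ferredoxin that passes electrons to CYP11A1, did not follow it. FDX1 had 161, 87.0 and 58.6 TPM at T16, against 77.9, 108 and 128 TPM at T0, and was highest in the library where CYP11A1 was lowest. Its highest level was 2.75 times the lowest at T16 and 1.65 times at T0, the narrowest spread of the set in either group. FDX1 differed between groups by a log2 fold change of 0.05 ± 0.372 (SE, edgeR adjusted p = 0.971), a sign that turned under other scalings (−0.010 with DESeq2 size factors). The ratio of CYP11A1 to FDX1 in TPM was 0.0170, 8.77 and 6.78 at T16 and 17.2, 4.62 and 2.32 at T0.

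HSD3B1, which makes progesterone from pregnenolone, had 14.6, 1008 and 35.8 TPM at T16, against 1008, 362 and 112 TPM at T0. The T16 group was split, with replicate 2 at the level of the highest T0 library and replicates 1 and 3 below all T0 libraries. The log2 fold change was −0.55 ± 1.49 (SE, edgeR adjusted p = 0.916). Leaving out T0 replicate 1 gave 0.69, and leaving out T16 replicate 2 gave −4.16. In that last case DESeq2 gave −4.15 and an adjusted p of 0.000391. HSD3B1 relative to CYP11A1 was 5.32, 1.32 and 0.0900 in TPM at T16 and 0.753, 0.728 and 0.376 at T0, so the first enzymes of the chain kept closer proportions in the T0 libraries.

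The enzymes of androgen and estrogen synthesis were low in all libraries. CYP17A1, which makes androgen precursors and marks theca cells, had 0.196, 0 and 2.85 TPM at T16, against 1.83, 1.41 and 0 TPM at T0. With 0 counts in T16 replicate 2 and T0 replicate 3, a level of up to 0.116 CPM (counts scaled to a common library total) in the T16 library and 0.135 CPM in the T0 library was still possible, which are limits from 3 counts that cover counting error only. CYP19A1 had 1.04, 0.224 and 0.307 TPM at T16, against 0.083, 1.02 and 0.932 TPM at T0. Neither gene exceeded 3 TPM in any library, and their groups overlapped. HSD17B1, which turns estrone into estradiol in granulosa cells, had 2.78, 11.1 and 1.56 TPM at T16, against 0.888, 15.7 and 3.44 TPM at T0. In each group it was highest in replicate 2. By edgeR the log2 fold changes were 0.15 ± 2.09 for CYP17A1, −0.23 ± 1.13 for CYP19A1 and −0.25 ± 1.17 for HSD17B1 (SE), with adjusted p of 0.987, 0.959 and 0.954.

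Of the gonadotropin receptors, FSHR was the gene of the set whose groups did not overlap, with lower levels at T16, while LHCGR overlapped. FSHR, the receptor of FSH and a gene of granulosa cells, had 1.15, 3.46 and 0 TPM at T16, against 10.8, 45.6 and 28.3 TPM at T0. In estimated counts this was 43, 119 and 0 at T16 and 401, 2034 and 948 at T0. No T16 library reached the lowest T0 library. FSHR averaged 1.54 ± 1.76 TPM at T16 and 28.2 ± 17.4 TPM at T0 (SD, n = 3 each). The 0 counts of T16 replicate 3 allow up to 0.0817 CPM. The log2 fold change was −4.09 ± 1.53 (SE) by edgeR, with an unadjusted p of 0.0305 and an adjusted p of 0.293 over all 14639 genes, so FSHR was not past the threshold. DESeq2 gave −4.18 ± 1.3 (SE) and an adjusted p of 0.0242, which called it lower at T16. That call was kept in 3 of 6 fits that left out 1 library each. It was lost without T0 replicate 2 (adjusted p = 0.336), without T0 replicate 3 (0.138) and without T16 replicate 1 (0.0778), while the log2 fold change stayed between −5.61 and −3.60.

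LHCGR, the receptor of LH, had 3.19, 3.15 and 0.965 TPM at T16, against 1.12, 2.24 and 2.65 TPM at T0. The groups overlapped (log2 fold change 0.33 ± 0.837 SE, edgeR adjusted p = 0.912). FSHR relative to LHCGR was therefore 0.362, 1.10 and 0 in TPM at T16, against 9.66, 20.4 and 10.7 at T0, and no T16 ratio reached a T0 ratio. With FSHR alone already lower in all T16 libraries, this was largely set beforehand and adds no further result.

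**Figure D2:**
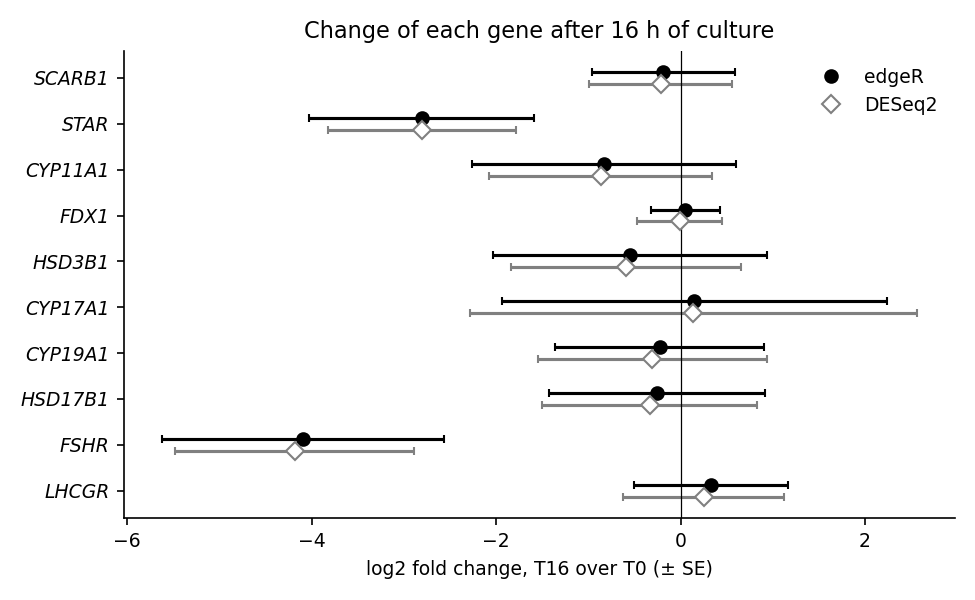
Log2 fold change of T16 over T0 for each of the 10 genes, with edgeR (black circles) and DESeq2 (open diamonds) estimates; bars are ± 1 SE and the line marks no difference. FSHR (−4.09 by edgeR) and STAR (−2.81) lie farthest from 0, and the bars of the other 8 genes reach or cross it.

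The lower FSHR level at T16 was not a matter of 1 transcript model. Reads were assigned to 5 RefSeq models of 2344 to 2528 bases. The curated model NM_174061 held 57.7% of FSHR in T16 replicate 1 and 25.8% in T16 replicate 2, against 38.2%, 65.7% and 59.5% in the T0 libraries. The models XM_024998262 and XM_024998263 were at 0 in all T16 libraries and above 0 in all T0 libraries. With so few reads at T16, how FSHR reads were shared among models there is uncertain. LHCGR had 6 models, of which XM_015473420 held 68.8% to 98.0% of the gene in every library, and 3 were at 0 in all libraries. The curated LHCGR model, NM_174381, received reads in T0 replicate 2 alone. STAR, CYP11A1, FDX1, CYP17A1, CYP19A1 and HSD17B1 had 1 model each.

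**Figure D3:**
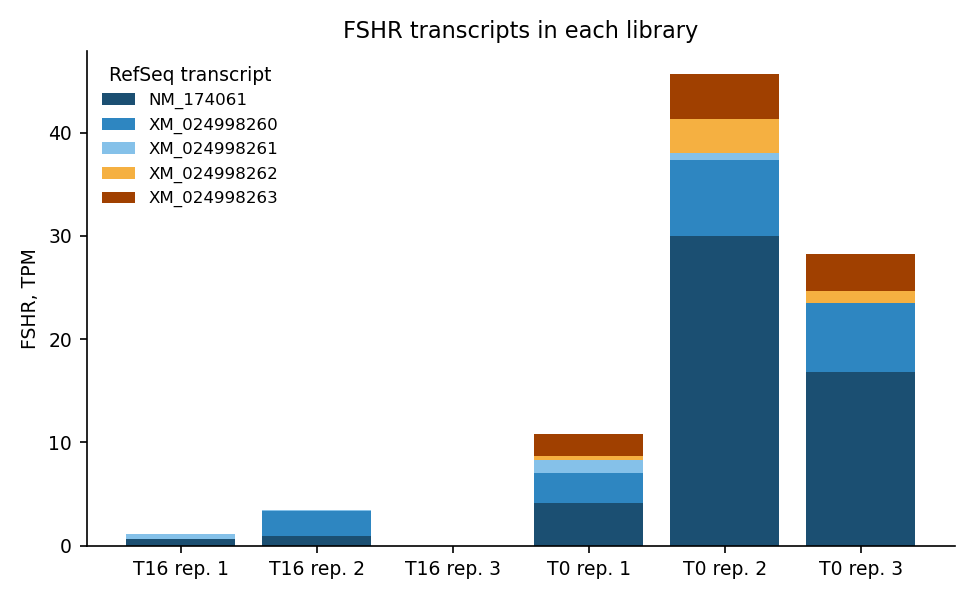
FSHR level in TPM in each library, stacked by the 5 RefSeq transcript models. The T16 libraries hold 1.15, 3.46 and 0 TPM, against 10.8, 45.6 and 28.3 TPM in the T0 libraries, and the brown and orange models are at 0 in all T16 libraries.

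Since FSHR is made by granulosa cells, its level was set against each of 14 granulosa and pregranulosa markers in the same library. The ratio of FSHR to the marker was lower in all T16 than in all T0 libraries for 9 of the 14: AMH, KRT18, KRT19, GJA1, CDH2, KITLG, WT1, INHA and IRX3. The groups of each of these 9 markers overlapped. FSHR alone was already lower in all T16 libraries and at 0 in T16 replicate 3, so lower ratios were largely set beforehand. The count is a description and cannot separate FSHR from granulosa cell content. Against INHA, the inhibin alpha subunit, the ratio was 0.00822, 0.00553 and 0 at T16 and 0.0372, 0.0458 and 0.0471 at T0. For FOXL2, WNT6, KRT8 and INHBB the ratios overlapped, and for LGR5, at 0 in T16 replicate 3, no comparison was made. Against FOXL2 the ratio was 0.342, 0.172 and 0 at T16 and 0.281, 0.325 and 0.758 at T0. FOXL2 itself had 3.37, 20.1 and 15.1 TPM at T16, against 38.5, 141 and 37.3 TPM at T0, and WNT6, a ligand of pre-granulosa cells, had 0.055, 15.1 and 1.54 TPM at T16, against 39.0, 155 and 74.6 TPM at T0. By mean TPM the list was mixed, higher at T16 for 8 of the 14 markers and lower for 6. By groups without overlap, with HSD17B1 included in the list, 3 of 15 markers were lower at T16 and 0 higher. Of all tested genes, 10.6% were lower and 13.2% higher in this way. The count of 3 of 15 is near the 23.8% of all genes without overlap, so it is no result about these markers. The 3 markers were FOXL2, WNT6 and LGR5, the last with 0.091, 0.859 and 0 TPM at T16, against 2.27, 3.54 and 1.37 TPM at T0. GJA1, a connexin of granulosa cells, averaged 680 TPM at T16 and 344 TPM at T0. CDH2, a cadherin, averaged 223 TPM at T16 and 148 TPM at T0, and KITLG, the ligand of the KIT receptor, 68.8 TPM at T16 and 47.1 TPM at T0. The groups of GJA1, CDH2 and KITLG overlapped, and GJA1 had 244, 1495 and 299 TPM at T16, against 448, 345 and 239 TPM at T0. Over the 15 listed markers, HSD17B1 included, the median log2 fold change was 0.22 and 7 of 15 were below 0. The part that pre-granulosa cell content has in the FSHR level was not tested.

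Over the whole set, edgeR called 0 of the 10 genes at an adjusted p under 0.05, where 0.041% of all tested genes were called, and 1 of 10 (FSHR) had an unadjusted p under 0.05, against 13.8% of all genes. DESeq2 called 1 of 10 (FSHR, lower at T16), where it called 7.22% of all genes. The T16 and T0 libraries did not overlap for 1 of 10, again FSHR, compared with 23.8% of all genes. The median log2 fold change was −0.24 over the 10 genes and −0.08 over all tested genes, and 7 of 10 were below 0. A count of 1 in 10 is near these shares of all genes, so the counts are no result about the set as a whole.

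The mean levels at T16 ran in the order CYP11A1 (388 TPM), HSD3B1 (353), FDX1 (102), STAR (70.9), SCARB1 (39.6), HSD17B1 (5.14), LHCGR (2.43), FSHR (1.54), CYP17A1 (1.02) and CYP19A1 (0.523). At T0 the order was CYP11A1 (712 TPM), STAR (525), HSD3B1 (494), FDX1 (105), SCARB1 (48.1), FSHR (28.2), HSD17B1 (6.69), LHCGR (2.00), CYP17A1 (1.08) and CYP19A1 (0.680). In TPM, a step held in 3 of 3 libraries between SCARB1 and HSD17B1 at T16, and between CYP11A1 and STAR and between FSHR and HSD17B1 at T0. The other neighbours changed places in at least 1 library, so their order is within the spread. In CPM, which is not corrected for transcript length, STAR took place 1 and CYP11A1 place 2 at T0, and in T0 replicate 1 STAR had 1965 CPM and CYP11A1 1364 CPM. FSHR stood in place 8 at T16 and in place 6 at T0.

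Levels of cell type markers are given beside those of CYP11A1 and HSD3B1. Within each group, CYP11A1 was highest in the library with the least oocyte RNA (T16 replicate 2, with 763 TPM, and T0 replicate 1, with 1339 TPM) and lowest in the library with the most (T16 replicate 1, with 2.74 TPM, and T0 replicate 3, with 298 TPM). KRT8 had 241, 6286 and 1908 TPM at T16 and 7671, 2383 and 419 TPM at T0, which is the same order of libraries. The order by oocyte RNA did not carry across groups. T16 replicate 1 and T0 replicate 2 had like oocyte sums, of 2051 and 1937 TPM. CYP11A1 was at 2.74 TPM in that T16 library and at 497 TPM in that T0 library, and KRT8 at 241 and 2383 TPM. The order by KRT8 did carry across groups. Over the libraries of both groups, KRT8 and CYP11A1 rose in the same order, from T16 replicate 1 to T0 replicate 1. No other of the 14 granulosa and pregranulosa markers had this order over all libraries. KRT18, GJA1, CDH2 and INHBB kept it within each group but not across groups. Among the T0 libraries FOXL2, WNT6 and INHA peaked in replicate 2, and KRT19 (46.3, 159 and 206 TPM) ran opposite to CYP11A1. The match is thus a description of 1 marker and not of granulosa cell content. The part of cell makeup in the levels of CYP11A1 and HSD3B1 was not tested. Stromal fibroblast markers (10 genes) summed to 278, 782 and 1737 TPM at T16 and 3052, 1353 and 1208 TPM at T0. They followed the order of CYP11A1 at T0 but not at T16. In T16 replicate 1 this sum was mainly DCN (152 TPM) and PDGFRA (112 TPM), with COL1A2 at 2.43, COL3A1 at 0.74 and LUM at 0.072 TPM. Endothelial markers (10 genes) summed to 16.3, 39.1 and 22.0 TPM at T16 and 394, 250 and 24.0 TPM at T0. CLDN5 alone had 4.36, 31.3 and 16.9 TPM at T16 and 382, 228 and 13.6 TPM at T0. The endothelial sum was thus mainly this gene in T0 replicates 1 and 2. Smooth muscle and pericyte markers (10 genes) summed to 36.0, 310 and 71.1 TPM at T16 and 500, 352 and 118 TPM at T0, led by TAGLN. Within each group, the endothelial sum and the smooth muscle and pericyte sum followed the order of CYP11A1. Many defining markers were absent from single libraries. Of the 10 endothelial markers, 5, 4 and 3 were at 0 counts in the T16 libraries and 1, 1 and 4 in the T0 libraries, and PECAM1 and CDH5 were among those at 0 in T16 replicate 1. Of the smooth muscle and pericyte markers, 2, 2 and 1 were at 0 in the T16 libraries and 0, 0 and 1 in the T0 libraries, with ACTA2 and MYH11 at 0 in T16 replicate 1. The pools are labelled as primordial follicles, which the study's methods describe as an oocyte within flattened pre-granulosa cells. Immune and blood cell markers (10 genes) summed to 19.5 to 62.8 TPM at T16 and 19.7 to 70.3 TPM at T0. Highest of them on average was CSF1R, with 37.8, 0.074 and 6.89 TPM at T16 and 8.31, 40.3 and 42.4 TPM at T0. CD68 had 14.2, 1.00 and 5.51 TPM at T16 and 0, 0 and 0.838 TPM at T0.

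Markers of theca and other steroid-producing cells outside the set were also read. The 6 genes INSL3, NR5A1, PTCH1, GLI1, HHIP and APOC3 summed to 23.3, 97.7 and 40.7 TPM at T16 and 97.9, 175 and 193 TPM at T0. Of these, 0, 2 and 1 genes were at 0 counts in the T16 libraries and 0, 0 and 1 in the T0 libraries. INSL3, a hormone of theca and Leydig cells, had 8.75, 33.7 and 20.0 TPM at T16, against 38.6, 108 and 159 TPM at T0, with no overlap (log2 fold change −2.11 ± 0.689 SE, adjusted p = 0.234 by edgeR and 0.0342 by DESeq2). At T16 the libraries had the same order in INSL3 as in CYP11A1 and HSD3B1, and at T0 the reverse order. The part of steroid-producing cells outside the follicle in the levels of STAR, CYP11A1 and HSD3B1 was not tested.

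**Figure D4:**
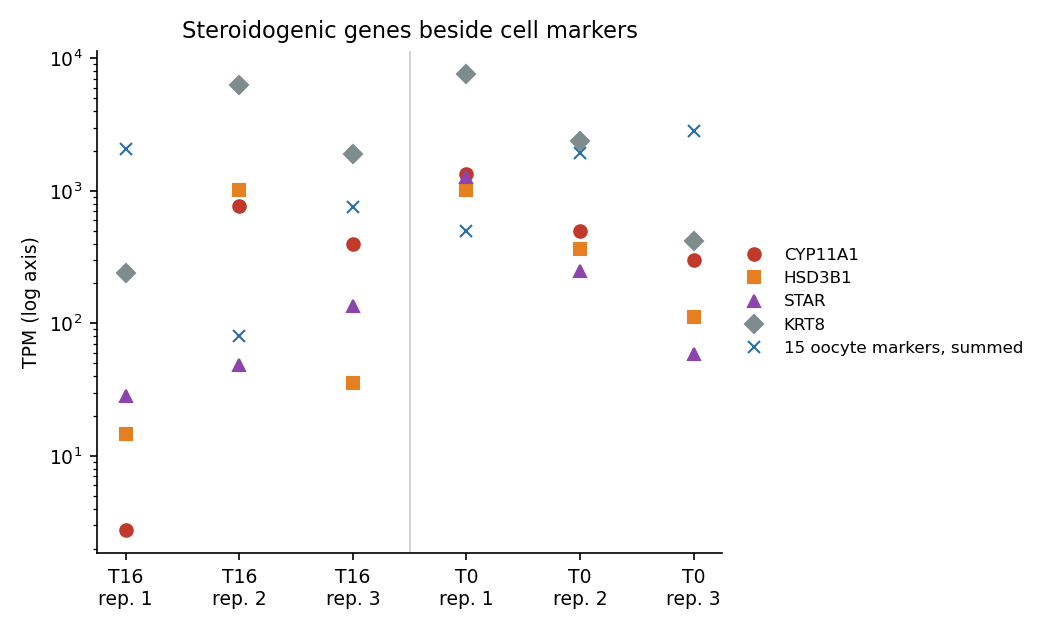
TPM of CYP11A1, HSD3B1, STAR and the keratin KRT8, and the summed TPM of 15 oocyte markers, in each T16 (left) and T0 (right) library on a log axis. T16 replicate 1, with 2051 TPM of oocyte markers, has 2.74 TPM of CYP11A1, and T0 replicate 1, with 495 TPM of oocyte markers, has 1339 TPM.

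Genes around the pathway were read as 5 lists, chosen by function. Of these, edgeR called none at an adjusted p under 0.05, and the counts at an unadjusted p under 0.05 and by DESeq2 follow for each list, to be read against 13.8% and 7.22% of all tested genes. For cholesterol supply and transport, 25 of 28 listed genes were tested. At an unadjusted p, 1 was higher and 2 were lower at T16, and DESeq2 called 1 higher and 2 lower. These are 3 of 25 by each rule, against 13.8% and 7.22% of all genes, and the median log2 fold change was 0.08. CYP27A1, a mitochondrial sterol hydroxylase, had 10.2, 37.9 and 14.2 TPM at T16, against 94.2, 81.8 and 48.2 TPM at T0 (adjusted p = 0.237 by edgeR and 0.0401 by DESeq2). CEL, a lipase of cholesteryl esters, was at 0 counts in all T16 libraries, against 318 summed counts at T0, which is at least 122-fold lower at T16 by a floor of 3 counts over the group (DESeq2 adjusted p = 0.000278, edgeR 0.130). Most of the T0 counts of CEL were in T0 replicate 2 (253 counts), and without that library the limit was 40.0-fold. The most abundant genes of the list overlapped between groups. APOA1, an apolipoprotein of high-density lipoprotein, had 2.59, 282 and 394 TPM at T16 and 1203, 846 and 113 TPM at T0. TSPO, a protein of the outer mitochondrial membrane, had 365, 574 and 743 TPM at T16 and 575, 271 and 108 TPM at T0, and DBI, its ligand, 208, 862 and 388 TPM at T16 and 381, 300.4 and 245 TPM at T0.

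For other steroid synthesis and metabolism, 24 of 37 genes were tested, 2 were higher and 0 lower at an unadjusted p, DESeq2 called 1 higher and 0 lower, and the median log2 fold change was −0.35. The 2 of 24 and 1 of 24 genes stand beside 13.8% and 7.22% of all genes. CYP1B1, which hydroxylates estradiol, had 222, 63.3 and 74.9 TPM at T16, against 0.292, 0.213 and 2.55 TPM at T0. Its log2 fold change was 7.03 ± 1.16 (SE), with an adjusted p of 0.0877 by edgeR and 6.06e-11 by DESeq2, and it was the steroid-metabolizing gene farthest from no difference. HSD17B12, an enzyme of fatty acid elongation that is also named as a 17-beta-hydroxysteroid dehydrogenase, had 109, 118 and 74.9 TPM at T16, against 69.8, 42.6 and 37.3 TPM at T0 (edgeR adjusted p = 0.288). SRD5A3, of the 5-alpha-reductase family, had 3.30, 2.90 and 2.36 TPM at T16, against 9.15, 8.16 and 6.59 TPM at T0 (edgeR adjusted p = 0.396). Neither overlapped between groups, and DESeq2 did not call them. POR, the electron donor of microsomal P450 enzymes such as CYP17A1 and CYP19A1, was far more abundant than these, with 79.0, 318 and 280 TPM at T16 and 251, 106 and 80.6 TPM at T0. PAPSS2, which makes the sulfate donor for steroid sulfation, had its T16 libraries in the same order as CYP11A1, with 5.42, 214 and 57.0 TPM, and had 339, 106 and 67.7 TPM at T0. HSD17B10, a mitochondrial dehydrogenase, had 212, 232 and 342 TPM at T16 and 355, 305 and 319 TPM at T0.

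All 35 genes of the list of transcription factors of steroidogenic genes were tested. At an unadjusted p, 1 was higher and 4 were lower at T16, DESeq2 called 0 higher and 3 lower, and the median log2 fold change was −0.09. The 5 of 35 and 3 of 35 genes are near the shares of all genes, 13.8% and 7.22%. NR4A1, an orphan nuclear receptor induced by cAMP that activates steroidogenic promoters in Leydig and theca cells, had 13.8, 7.44 and 7.83 TPM at T16, against 75.5, 136 and 140 TPM at T0 (log2 fold change −3.47 ± 0.379 SE, adjusted p = 0.0539 by edgeR and 5.91e-13 by DESeq2). CEBPD, a leucine zipper factor, had 47.5, 90.3 and 56.4 TPM at T16, against 279, 283 and 675 TPM at T0 (log2 fold change −2.53 ± 0.464 SE, adjusted p = 0.0921 by edgeR and 3.5e-05 by DESeq2). NR0B2, a repressor of nuclear receptors, was at 0 counts in all T16 libraries, against 145 summed counts at T0, at least 55.4-fold lower by the same floor (DESeq2 adjusted p = 0.00358, edgeR 0.111). NR5A1, the steroidogenic factor that activates most genes of the set, had 10.1, 61.7 and 18.2 TPM at T16 and 49.8, 53.0 and 25.5 TPM at T0, with overlap; it was named after its values were seen. The abundant CITED2, a coactivator, had 176, 1087 and 192 TPM at T16 and 772, 525 and 196 TPM at T0, and CTNNB1, beta-catenin, had 503, 510 and 276 TPM at T16 and 405, 308 and 303 TPM at T0.

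For cAMP signalling below the gonadotropin receptors, 46 of 50 genes were tested, of which 5 were higher and 3 lower at an unadjusted p and DESeq2 called 1 higher and 0 lower, against 13.8% and 7.22% of all genes. The median log2 fold change was −0.15, and 9 genes were higher and 7 lower at T16 without overlap in CPM, 16 of 46 against 23.8% of all genes. GNAI1, an inhibitory G protein subunit, had 115, 79.2 and 58.0 TPM at T16, against 37.1, 44.5 and 41.8 TPM at T0 (log2 fold change 1.12 ± 0.300 SE, adjusted p = 0.158 by edgeR and 0.0401 by DESeq2). GNAI3, of the same family, had 329, 210 and 194 TPM at T16, against 160, 145 and 129 TPM at T0 (edgeR adjusted p = 0.321). PRKAR1A, a regulatory subunit of protein kinase A, had 466, 474 and 544 TPM at T16, against 399.8, 265 and 239.8 TPM at T0, and AKAP1, which anchors that kinase at mitochondria, had 17.4, 14.8 and 14.7 TPM at T16, against 10.2, 6.17 and 6.36 TPM at T0. These 4 genes did not overlap between groups, and edgeR called none of them. GNAS, the stimulatory subunit through which FSHR and LHCGR act, overlapped with 217, 495 and 347 TPM at T16 and 473, 430.0 and 393 TPM at T0. GRK3, a kinase of activated receptors, was near the limit of detection, with 0, 0 and 0.091 TPM at T16 and 0.661, 0.974 and 0.417 TPM at T0.

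Of the steroid receptors, 12 of 12 were tested, none was past an unadjusted p under 0.05 or called by DESeq2, and the median log2 fold change was −0.57. PGRMC1 and PGRMC2, membrane-associated progesterone receptor components, were the most abundant. PGRMC1 had 266, 216 and 168 TPM at T16 and 259, 292 and 333 TPM at T0, and PGRMC2 had 88.4, 122 and 107 TPM at T16 and 161, 179 and 139 TPM at T0. NR3C1, the glucocorticoid receptor, had 8.68, 11.6 and 6.45 TPM at T16, against 4.83, 5.80 and 6.01 TPM at T0 (edgeR adjusted p = 0.393). NR3C2, the mineralocorticoid receptor, had 31.8, 0.513 and 5.20 TPM at T16 and 7.78, 28.2 and 28.5 TPM at T0, and PAQR7, a membrane progestin receptor, had 2.65, 8.79 and 0.886 TPM at T16 and 45.7, 12.6 and 6.44 TPM at T0.

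**Figure D5:**
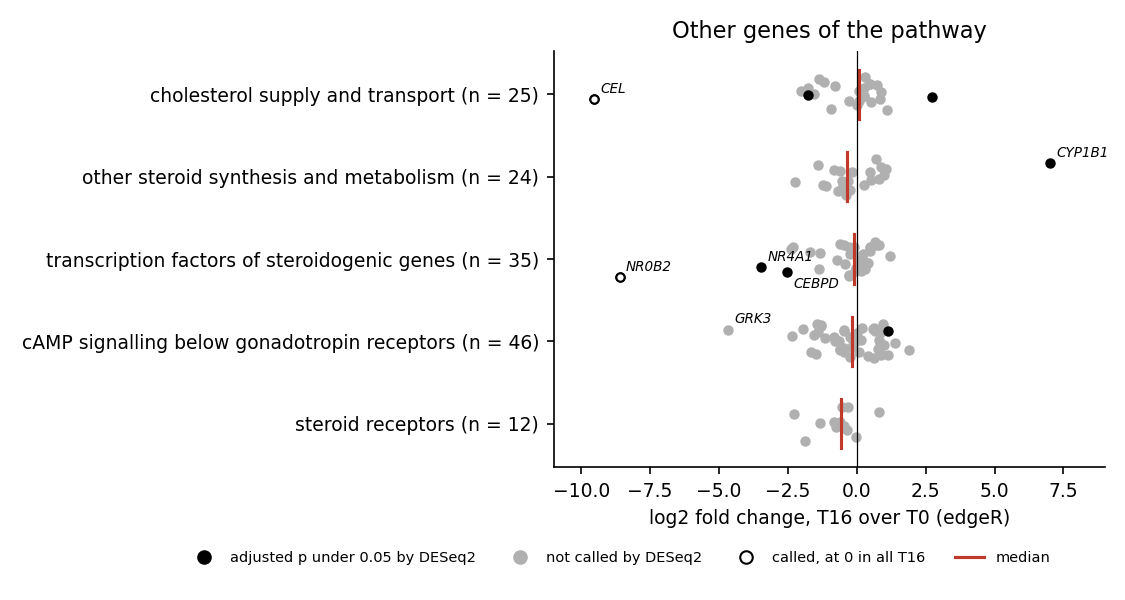
Log2 fold change of T16 over T0 by edgeR for the tested genes of 5 pathway lists; each point is a gene, black points are called by DESeq2, and red lines are list medians. CEL and NR0B2 (open points) were at 0 in all T16 libraries, so their fitted positions are no measure of size; CYP1B1 (7.03) lies farthest to the right.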

How the data were processed

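By the study's methods, RNA of its follicle pools had been amplified with SMART-Seq v4 and sequenced. After trimming with Trim Galore and fastp, the authors ran Salmon on the transcripts of assembly ARS-UCD1.3. The 3 T16 pools are not described in those methods. They are taken to have been handled in the same way as the 3 T0 pools. The deposited files hold, per transcript, estimated counts and TPM. Both were summed here to gene symbols by means of RefSeq gene names (ARS-UCD2.0), and coordinates were not used. Of 76123 transcripts 50205 matched, and the unmatched held 9.74% to 10.9% of the counts and were left out. The estimated counts were then rounded to whole numbers.

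T16 was compared with T0 by the quasi-likelihood test of edgeR 4.0.16 (R 4.3.3) with TMM normalization. Genes needed at least 10 counts in at least 3 libraries, and p-values were adjusted by Benjamini-Hochberg over all 14639 tested genes, with a threshold of 0.05. DESeq2 1.42.0, limma 3.58.1 on log2(TPM + 1) or log2(TPM + 0.1), other filters and scalings, transcript length offsets, the replicate number as a block and leaving out libraries were the alternatives. DESeq2 with a library left out, fits without 2 libraries and limits without each T0 library were added after the values were seen. The fits were tested on simulated data. A floor of 3 counts was used where a gene had 0 counts. These libraries were amplified without molecular identifiers, so floors cover counting error only.

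The 10 genes and all lists were chosen with earlier results of these data known. Named are the 10 genes, from each pathway list the 3 tested genes with the highest mean TPM and the 3 with the smallest unadjusted p, and for each of the 10 the 2 genes of most similar log2 CPM. AMH, FOXL2, INHA, WNT6 and the other markers set against FSHR, INSL3, NR5A1 and the luteal genes were named after their values were seen. P-values measure the spread between these libraries, which may in part be technical. Since near-identical copies can share reads, values of gene family members carry that uncertainty. Promoter and protein sequences were not used here, and the values of 1 gene that the rule names are not reported here.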

Additional observations from a re-analysis of the deposited data

How the results depend on the processing

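The direction of FSHR and of STAR was the same in all 22 alternatives run for each. FSHR ran from −5.95 to −3.51 over the 15 fits other than DESeq2, with adjusted p from 0.0714 to 0.751. It was −4.18 and called by DESeq2, −4.54, −5.61 and −3.60 and still called by DESeq2 without T0 replicate 1, T16 replicate 2 and T16 replicate 3. DESeq2 also called STAR without T0 replicate 3 (−3.35) or T16 replicate 3 (−3.90) and HSD3B1 without T16 replicate 2 (−4.15). It called 1 of the 10 genes on all libraries, and 0 to 2 with 1 library left out. In the fits without a T0 library, DESeq2 gave HSD3B1 no adjusted p, so it could not be called there. Where it is not said otherwise, the cause of a change was not tested. Over all genes, edgeR called 6, without a count filter 11, and with 1 library left out 0 to 3. It called 0 and 0 without T0 replicate 1 together with T16 replicate 2 or with T16 replicate 1, where fewer libraries remain. DESeq2 called 1027, and with 1 library left out 231 to 958 genes as higher and 88 to 947 as lower at T16. Limma called 67 higher and 36 lower on log2(TPM + 1), and 51 higher and 32 lower on log2(TPM + 0.1). With the replicate number as a block edgeR called 0 genes, CYP17A1 turned to −2.73, HSD17B1 to 0.089 and FDX1 to −0.021. Whether same-numbered T16 and T0 pools belong together is not stated in the sources used here. The correlation of same-numbered deviations from the group means was between −0.445 and −0.00469, and that of T16 replicate 2 with T0 replicate 1 was 0.438. With pools so unlike in cell type markers, these values cannot tell whether the samples were paired.

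Signs turned for genes whose groups overlapped. FDX1 turned to −0.010 with DESeq2, −0.010 with DESeq2 size factors in edgeR, −0.041 without a filter, −0.037 with length offsets, and −0.13 and −0.13 with limma on log2(TPM + 1) and log2(TPM + 0.1). CYP17A1 was −0.19 and −0.58 with limma. Without T0 replicate 1 and T16 replicate 1, CYP11A1 was 0.61, HSD3B1 1.13, SCARB1 1.00, FDX1 −0.63 and LHCGR −0.34; without T0 replicate 1 and T16 replicate 2, SCARB1 was 0.63 and LHCGR −0.058. With 1 library left out, edgeR gave −3.90 to −0.81 for STAR, −1.59 to 0.19 for CYP11A1, −4.16 to 0.69 for HSD3B1, −0.47 to 0.73 for CYP17A1 (tested in 3 of these fits), −1.21 to 0.14 for CYP19A1, −1.43 to 1.20 for HSD17B1, −0.73 to 0.72 for SCARB1, −0.45 to 0.26 for FDX1, −5.60 to −3.51 for FSHR and −0.052 to 0.67 for LHCGR. DESeq2 so gave −1.59 to 0.10 for CYP11A1, −0.46 to 0.74 for CYP17A1, −4.15 to 0.61 for HSD3B1, −1.17 to 0.11 for CYP19A1, −1.44 to 1.23 for HSD17B1, −0.77 to 0.64 for SCARB1, −0.43 to 0.21 for FDX1 and −0.041 to 0.60 for LHCGR. Within these ranges the sign also turned for SCARB1 (0.25) and HSD3B1 (0.010) without T16 replicate 1, for CYP19A1 without T0 replicate 2 (0.080) or 3 (0.0082), for HSD17B1 without T16 replicate 3 (0.059), and for FDX1 without T0 replicate 1 (−0.13) or 2 (−0.027). The median of the transcription factor list was −0.25 with length offsets, −0.24 without T0 replicate 1 and T16 replicate 1, and −0.26 to −0.058 with 1 library left out. Ranking by CPM in place of TPM moved 8 of 20 places in the order of levels, among them the first at T0, which STAR then took from CYP11A1. The depth leaves CYP17A1, CYP19A1 and T16 FSHR with few reads.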

Other observations

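The genes most like each of the 10 by Pearson's r of log2 CPM over the 6 libraries, among 14639 tested genes, are given as a description, since so many genes set against 6 values from 2 groups give high r for any gene. For CYP11A1 they were HHIPL1 and DEXI, for HSD3B1 the dehydrogenase IDH1 and the laminin chain LAMB2, for STAR the collagen IV chain COL4A1 and LOC521580, for SCARB1 PTK7 and SPNS1, and for FDX1 LRR1 and NHLRC2. For CYP17A1 they were TMEM47 and AOC3, for CYP19A1 CSMD2 and LOC112448481, for HSD17B1 POLR3F and FNBP1L, for FSHR CNTN1 and RNFT2, and for LHCGR THOC2 and GRHL3. These r values were between 0.972 and 0.999, with n = 6 libraries each.

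Genes of the corpus luteum were read after the values of STAR, CYP11A1 and HSD3B1 had been seen. OXT, the oxytocin precursor, which bovine luteal cells make, had 40.2, 21.0 and 260 TPM in T16 replicates 1, 2 and 3, against 176, 42.7 and 46.4 TPM in T0 replicates 1, 2 and 3. It was highest in the T16 library with the highest STAR (T16 replicate 3) and in the T0 library with the highest STAR (T0 replicate 1). At T16 it was lowest in replicate 2, where CYP11A1 and HSD3B1 were highest. PTGFR, the prostaglandin F receptor, had 0.791, 0 and 0.755 TPM at T16 and 1.89, 1.11 and 0 TPM at T0. PRLR, the prolactin receptor, had 2.49, 0 and 0.997 TPM at T16 and 1.04, 2.04 and 7.06 TPM at T0. In the T0 library with the highest STAR, PTGFR was at its highest and PRLR at its lowest T0 level. The part of luteal cells in the levels of the steroidogenic genes was not tested.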
